A study of Mus musculus with 12 samples.

Results

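Untreated livers of S302A knock-in mice were compared with untreated livers of wild-type mice, to ask what the allele alone does to liver messenger RNA. The comparison holds 3 knock-in libraries (S302A_Ctrl) and 3 wild-type libraries (WT_Ctrl), chosen by their labels as 6 of the 12 libraries of the series. The remaining 6 come from mice of the same genotypes treated at 3 weeks of age with 50 µg/g of the liver carcinogen diethylnitrosamine, or DEN (WT_DEN and S302A_DEN, n = 3 each). All mice were male C57BL6, and the tissue was whole liver. The labels give an age at sacrifice of 33 to 41 weeks in 1 field and 30 to 38 weeks in another. The labels do not say that every library is a separate animal, so the tests below measure only the spread between these samples. Of 31253 gene symbols listed, 11279 stood above 1 TPM (a relative transcript level that divides out transcript length and library size) in at least 3 of the 6 untreated libraries and were tested.

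The knock-in changes CUGBP1, the protein of the gene Celf1. CUGBP1 binds GU-rich sequences in RNA and acts on splicing, translation and decay of its targets. In liver, the serine named in S302A is known as a site that cyclin D3 and CDK4 phosphorylate, and its phosphorylation is known to favour the form of CUGBP1 that works with the initiation factor eIF2 in translation. Hepatocytes make up most of the RNA of whole liver, and their levels of metabolic enzymes depend on position in the lobule, sex, time of day and feeding.

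A codon that fits the allele's name is shown first, because the allele is the designed difference between the groups. It was located on transcript Celf1-203 of GENCODE M21 (GRCm38, the assembly also called mm10), whose protein has 486 residues; isoforms differ in numbering, the sources used here name none, and this one was taken because it has a serine at that position. Celf1-204, of 483 residues, has a different serine codon there (chr2:91009225-91009227), so the numbering alone does not settle which codon is changed. The codon AGC, serine, lies at chr2:91009216-91009218 on the plus strand, in exon 10 of 14. The line below gives it in capitals with 30 bases of coding sequence on each side, which cross an exon junction.
Celf1-203 serine codon: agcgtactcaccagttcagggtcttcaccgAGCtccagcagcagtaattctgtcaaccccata
The line shows reference sequence, and the labels do not give the changed bases. TPM carries no base changes, so the genotype labels were not checked here.

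The 3 wild-type libraries, in replicate order here and below, held Celf1 at 13.3, 9.35 and 12.7 TPM, and those of the knock-in at 18.1, 18.4 and 13.2 TPM. The highest wild-type library lay just above the lowest knock-in library, so the groups overlapped. The knock-in mean was higher by 0.46 ± 0.19 (standard error) on the log2(TPM + 1) scale, with a limma adjusted p of 0.997. Within 10 Mb on either side of Celf1, 63 other genes were tested, of which 0 stood higher in every knock-in library than in every wild-type library and 3 stood lower in every one. That share is 4.76%, but all 3 lie within 1 Mb, where they are 3 of 27 tested genes (11.1%), against 7.48% of all tested genes. The smallest adjusted p in either window was 0.997.

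Few genes separated the genotypes. With limma, 2 of 11279 genes (0.0177%) had an adjusted p under 0.05, both lower in the knock-in. At an unadjusted p under 0.05 stood 124 genes higher (1.1%) and 291 lower (2.58%). Groups did not overlap for 844 genes (7.48%), of which 205 were higher in S302A_Ctrl (1.82%) and 639 lower (5.67%). The excess of lower genes went with a shift of all tested genes: their median log2 difference was -0.07, and 68.6% of them were lower. After median-of-ratios scaling, the median was 0.0036, 49.1% of genes were lower, and groups did not overlap for 499 genes higher and 462 lower. That scaling sets the libraries to a common median ratio. A median near 0 is therefore built in and cannot show which scale is right. The scaling factor was 1.184 for WT_Ctrl replicate 1 and 0.923 to 1.005 for the other untreated libraries. Differences below are given for TPM as deposited and can be read against the median of -0.07. The shares of 1.82% and 5.67% hold for TPM as deposited. Counts of genes apart after scaling are to be read against the 499 and 462.

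**Figure D1:**
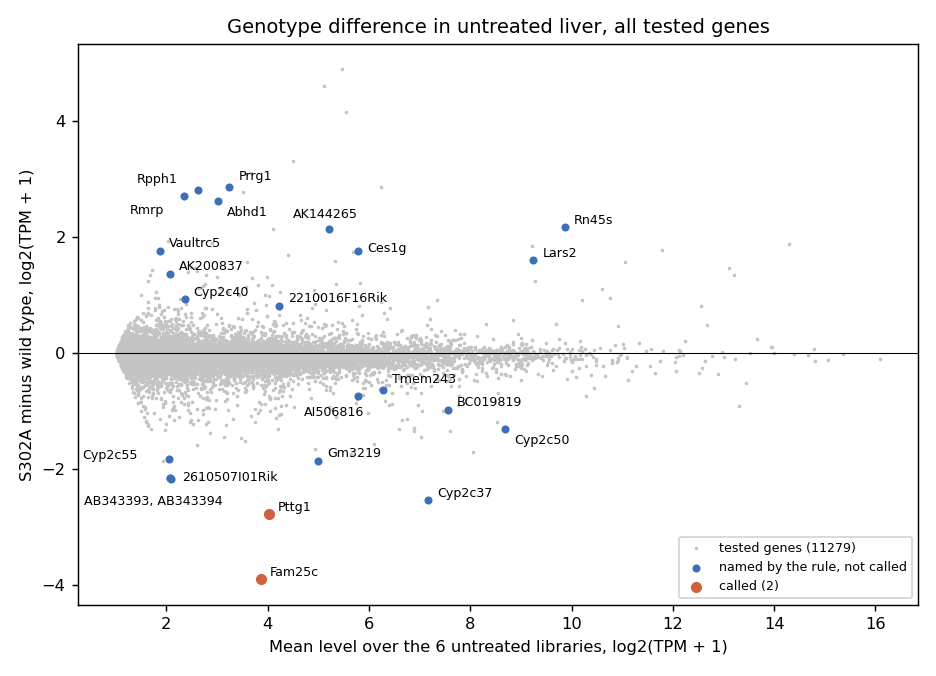
Each point is 1 of the 11279 tested genes, with its mean level over the 6 untreated libraries on the x axis and the knock-in minus wild-type difference on the y axis, both on the log2(TPM + 1) scale. The called genes Fam25c (-3.91) and Pttg1 (-2.79) lie at the bottom, the 22 blue points were named by the rule without passing the test, and the 3 unlabelled points above 4 are AK220016, BC024416 and A330049N07Rik, which stood near or at the floor in WT_Ctrl replicates 1 and 2.

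Of the called genes, Fam25c fell further. It stood at 68.6, 77.4 and 32.5 TPM in WT_Ctrl and at 2.70, 1.97 and 3.92 TPM in S302A_Ctrl. All 3 knock-in libraries lay far below all 3 wild-type libraries, with means of 59.5 ± 23.8 and 2.86 ± 0.984 TPM (SD, n = 3), a ratio of 20.8. The log2 difference was -3.91 ± 0.33 (limma adjusted p = 0.0168). Fam25c lies on the minus strand at chr14:34351882-34358339 (RefSeq, GRCm38.p6). None of its 378 distinct stretches of 31 bases in GENCODE M21 transcripts occurs in another gene. The call was lost when WT_Ctrl replicate 1, WT_Ctrl replicate 2 or S302A_Ctrl replicate 1 was left out, with adjusted p of 0.225, 0.0575 and 0.0931.

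The neighbouring predicted gene Gm3219, at chr14:34345055-34345686, stood at 82.3, 72.9 and 35.0 TPM in WT_Ctrl and at 14.2, 16.002 and 17.03 TPM in S302A_Ctrl. Its groups did not overlap, but it did not pass the test (-1.86, adjusted p = 0.147). All 273 of its 31-base stretches occur in other genes, so its own level is uncertain.

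Pttg1 encodes securin, which holds separase inactive until sister chromatids part in mitosis. It stood at 69.5, 35.0 and 29.6 TPM in WT_Ctrl and at 4.91, 5.23 and 5.45 TPM in S302A_Ctrl. The knock-in libraries lay within 1 TPM of each other and all below the lowest wild-type library. The means were 44.7 ± 21.7 and 5.195 ± 0.274 TPM (SD, n = 3), a ratio of 8.61 and a log2 difference of -2.79 ± 0.29 (limma adjusted p = 0.0402). Pttg1 lies on chr11:43420244-43427463. Its call was lost without WT_Ctrl replicate 2 (adjusted p = 0.107), S302A_Ctrl replicate 1 (0.212) or S302A_Ctrl replicate 3 (0.111).

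Other genes of cell division did not fall with Pttg1 as a group. Of 12 tested cell cycle genes, 8 were lower and 4 higher, with a median log2 difference of -0.05 against -0.07 for all tested genes, and 0 were called. Non-overlapping among them were Rrm1, a subunit of ribonucleotide reductase, at 2.55, 2.55 and 2.61 TPM against 1.78, 1.94 and 1.599, and Aurka, a mitotic kinase, at 1.87, 1.43 and 1.23 TPM against the floor of 1 in all 3 knock-in libraries. Aurka passed the filter only through WT_Ctrl, so its groups could not overlap. The share of all tested genes that stood apart lower was 5.67%. A further 13 of the 28 listed cell cycle genes stood at the floor in all 6 libraries. After median-of-ratios scaling, 6 of the 12 were lower and 3 stood apart lower, beside 462 of all 11279 tested genes.

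**Figure D2:**
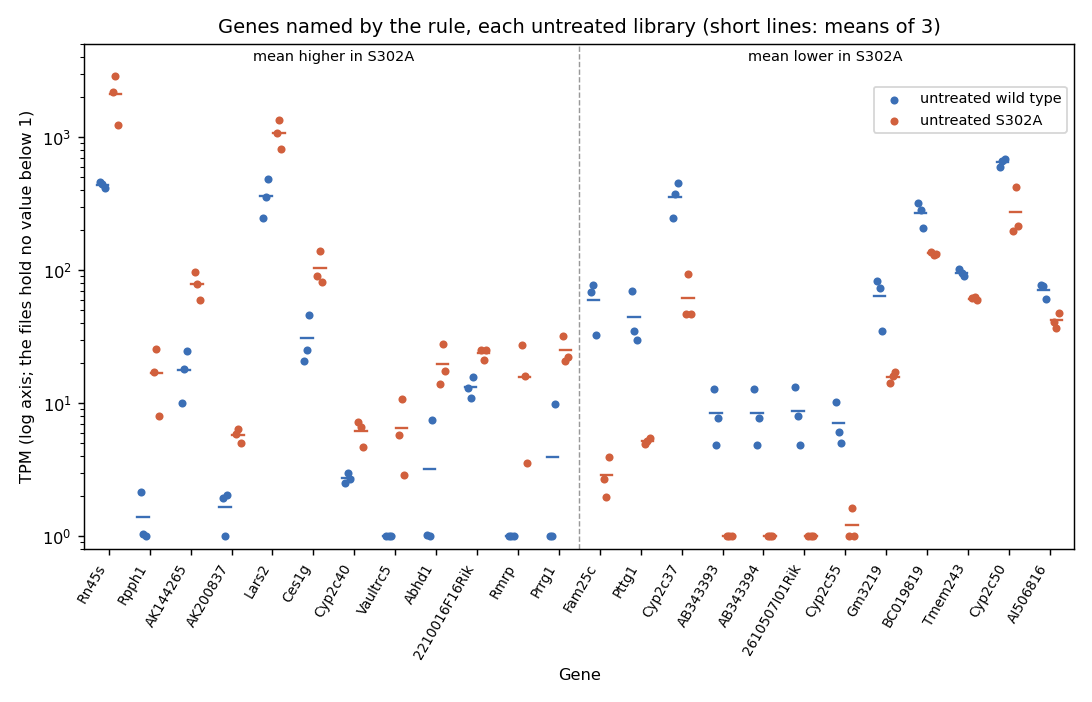
TPM on a log axis for the 24 genes named by the rule, 12 with a higher and 12 with a lower mean in S302A_Ctrl; points are libraries and short lines are means of 3. The groups do not overlap for any of these genes, because the rule required it, and Fam25c and Pttg1 are the called ones.

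The 22 other genes of that rule, taken in order of unadjusted p among genes with non-overlapping groups and a mean of at least 5 TPM in the higher group, had adjusted p of 0.0732 to 0.417. They fall into cytochrome P450 genes, structural RNAs and RNAs near the floor in some libraries, and a rest.

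Cytochrome P450 genes of the Cyp2c family oxidise arachidonic acid, other lipids and drugs in hepatocytes. The family lies in a cluster on mouse chromosome 19. Cyp2c37 stood at 248, 374 and 448 TPM in WT_Ctrl and at 46.6, 93.3 and 46.4 TPM in S302A_Ctrl. Every knock-in library was below every wild-type library, by a ratio of means of 5.74. The log2 difference was -2.54 ± 0.31, short of the threshold at an adjusted p of 0.0732. It passed without WT_Ctrl replicate 3 (0.0467) or S302A_Ctrl replicate 2 (0.0121).

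Cyp2c50 stood at 594, 663 and 687 TPM in WT_Ctrl and at 195, 417 and 214 TPM in S302A_Ctrl. Its groups did not overlap either, and S302A_Ctrl replicate 2 was again the highest knock-in library (-1.31 ± 0.27, adjusted p = 0.404, and 0.0202 without that library). Cyp2c55 stood at 10.2, 6.09 and 4.99 TPM in WT_Ctrl and at 1, 1.63 and 1 TPM in S302A_Ctrl (adjusted p = 0.0732). In the opposite direction, Cyp2c40 stood at 2.51, 3.01 and 2.67 TPM in WT_Ctrl and at 7.19, 6.62 and 4.68 TPM in S302A_Ctrl (0.93 ± 0.18, adjusted p = 0.382).

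Of the 13 tested Cyp2c genes, a group chosen after the values were seen, 4 did not overlap in the lower direction (Cyp2c37, Cyp2c50, Cyp2c55 and Cyp2c68) and 2 in the higher direction (Cyp2c39 and Cyp2c40). That is 46.2%, against 7.48% of all tested genes, and the same 4 and 2 counts were obtained after median-of-ratios scaling. Cyp2c37, Cyp2c50, Cyp2c55 and Cyp2c40 were named by a rule that required no overlap. The share is raised by that choice, and nothing is read from it. Cyp2c68 stood at 135, 146 and 75.9 TPM in WT_Ctrl and at 69.3, 73.6 and 44.3 TPM in S302A_Ctrl. Cyp2c39 stood at 15.7, 1.83 and 10.7 TPM in WT_Ctrl and at 32.7, 62.8 and 20.8 TPM in S302A_Ctrl. The other 7 overlapped, among them the abundant Cyp2c29, at 1180.2, 1065 and 1011 TPM in WT_Ctrl and 842, 1535 and 704 TPM in S302A_Ctrl. None of the 13 was called.

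**Figure D3:**
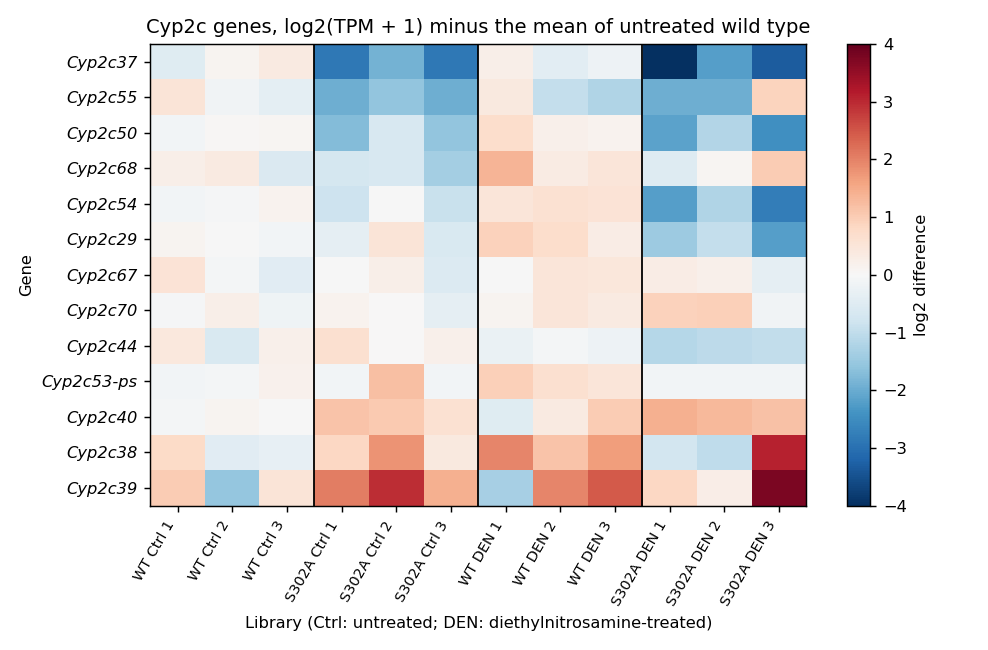
Each cell is the log2(TPM + 1) level of a Cyp2c gene in 1 library minus that gene's mean in untreated wild type, with genes ordered by the untreated genotype difference. Cyp2c37 and Cyp2c50 are blue in all 6 knock-in libraries, untreated and DEN-treated, and the values of Cyp2c38 and Cyp2c39 are highest in S302A_DEN replicate 3.

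Members of this family share sequence, so reads can be assigned to the wrong member. Of the 31-base stretches of Cyp2c37, 47.4% also occur in another gene, most often Cyp2c50. The share was 29.2% for Cyp2c50, 3.41% for Cyp2c55 and 72.6% for Cyp2c40. The bases just before the 2 genes' starts are alike as well. The 250 bases upstream of each start (RefSeq, GRCm38.p6, plus strand) are printed below because Cyp2c37 and Cyp2c50 moved in the same direction in every knock-in library. Capitals mark the longest run that both share without a mismatch, 44 bases.
Cyp2c37 chr19:39992174-39992423: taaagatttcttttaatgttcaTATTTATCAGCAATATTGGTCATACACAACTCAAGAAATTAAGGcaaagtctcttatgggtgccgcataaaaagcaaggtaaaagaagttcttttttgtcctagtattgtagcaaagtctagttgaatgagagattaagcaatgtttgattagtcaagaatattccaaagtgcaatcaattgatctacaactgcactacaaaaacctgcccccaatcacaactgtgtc
Cyp2c50 chr19:40089429-40089678: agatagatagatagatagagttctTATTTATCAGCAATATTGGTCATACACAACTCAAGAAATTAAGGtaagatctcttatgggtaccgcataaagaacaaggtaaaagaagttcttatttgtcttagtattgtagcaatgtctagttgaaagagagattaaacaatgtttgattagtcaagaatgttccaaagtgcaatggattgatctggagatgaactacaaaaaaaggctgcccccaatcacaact
Aligned end to end, 215 of 255 positions were identical (84.3%). The same alignment of Cyp2c37 with Cyp2c40, which stood higher in the knock-in, gave 125 of 265 (47.2%). No binding or methylation was measured, and nothing follows from these letters about a regulator.

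Some structural RNAs stood higher in every untreated knock-in library, none past the test. Rn45s, the precursor of ribosomal RNA, stood at 456, 445 and 414 TPM in WT_Ctrl and at 2180.4, 2851 and 1231 TPM in S302A_Ctrl. The lowest knock-in library was above the highest wild-type library, and the means, 438 ± 21.8 and 2087 ± 814 TPM (SD, n = 3), differed by a ratio of 4.76. The difference of 2.17 ± 0.28 had an adjusted p of 0.0732, and 0.0148 without S302A_Ctrl replicate 3.

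Rpph1, the RNA of ribonuclease P, which trims transfer RNA precursors, stood at 2.15, 1.03 and 1 TPM in WT_Ctrl and at 17.2, 25.7 and 8.03 TPM in S302A_Ctrl (2.81 ± 0.38, adjusted p = 0.0732). Its 31-base stretches occur in other genes for 70.2%, so its assignment is uncertain. Rmrp, the RNA of the related ribonuclease MRP, was listed at the floor of 1 in all 3 WT_Ctrl libraries and at 27.3, 16.1 and 3.58 TPM in S302A_Ctrl (adjusted p = 0.404). Vaultrc5, a vault RNA, was likewise at the floor in WT_Ctrl and stood at 5.73, 10.8 and 2.89 TPM in S302A_Ctrl (adjusted p = 0.382). Against a group at the floor a difference is a lower bound.

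Mir6236 and Snord17 were without overlap as well. Mir6236, listed under a microRNA symbol, stood at 791, 893 and 1682 TPM in WT_Ctrl and at 1706, 2804 and 2441 TPM in S302A_Ctrl. Snord17, a small nucleolar RNA, was at the floor in WT_Ctrl and at 1.45, 7.84 and 4.98 TPM in S302A_Ctrl. Small nucleolar RNAs as a class were split, with 22 of 42 tested higher and 20 lower, 4 apart higher and 3 apart lower. Rn4.5s, of the structural list, was lower with overlap, at 5.31, 2.11 and 3.72 TPM in WT_Ctrl and 2.14, 1.08 and 2.398 TPM in S302A_Ctrl. The structural list of 18 tested RNAs also held the long non-coding RNAs Malat1, Neat1, Gas5, Snhg1, Snhg3, Snhg5, Snhg8 and Snhg12. Of the 18, 12 were higher and 6 lower (Rn4.5s, Gas5, Malat1, Neat1, Snhg5 and Snhg8). In the higher direction 6 did not overlap and in the lower 0 (against 1.82% and 5.67% of all tested genes), and 0 were called. The median was 0.14, and -0.04 without S302A_Ctrl replicate 3. After median-of-ratios scaling 5 stood apart higher. Rn45s, Rpph1, Rmrp and Vaultrc5 had been named by a rule that required no overlap. Rmrp, Vaultrc5 and Snord17, at the floor in all 3 WT_Ctrl libraries, passed the filter only through S302A_Ctrl, so their groups could not overlap. For both reasons nothing is read from the share. Summed, the list came to 1647 to 2434 TPM in WT_Ctrl and 3999 to 6143 TPM in S302A_Ctrl. Whether RNA extraction or library preparation has a part in this was not tested, and the method of RNA selection is not given in the sources used here. In 1 fit, 125 symbols were left out and TPM rescaled, chiefly ribosomal, small nuclear and small nucleolar RNAs with Rpph1, Rmrp and vault RNAs. Fam25c and Pttg1 were again the 2 called genes. Mir6236, Malat1, Neat1, Gas5 and the Snhg genes of the list were kept in that fit.

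Lars2, which encodes mitochondrial leucyl-tRNA synthetase, was not in that list. It stood at 246, 354 and 480 TPM in WT_Ctrl and 1072, 1338 and 816 TPM in S302A_Ctrl (1.598 ± 0.27, adjusted p = 0.221). Within S302A_Ctrl, Lars2 and Rn45s were both highest in replicate 2 and lowest in replicate 3. In WT_DEN both were highest in replicate 1, with Lars2 at 465, 188 and 190 TPM. In WT_Ctrl their order was opposite, since Rn45s was highest in replicate 1 and Lars2 in replicate 3. Whether Lars2 values carry ribosomal RNA reads was not tested. The RNA AK144265 stood at 10.1, 17.9 and 24.8 TPM in WT_Ctrl and at 96.0, 78.3 and 59.7 TPM in S302A_Ctrl (adjusted p = 0.0956).

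Erythroid transcripts also had higher means in the knock-in, for the globin genes mostly through S302A_Ctrl replicate 1. Alas2, which starts haem synthesis in red cell precursors, stood at 18.4, 58.3 and 44.2 TPM in WT_Ctrl and at 89.9, 87.4 and 78.7 TPM in S302A_Ctrl (1.21, adjusted p = 0.997). Hba-a2, an alpha globin gene, reached 5062 TPM in S302A_Ctrl replicate 1, against 1649 and 1684 in the other knock-in libraries and 905 to 1545 in WT_Ctrl. The 4 tested erythroid markers all had a higher mean. Of these, 2 did not overlap (Alas2 and Hba-a2), against 1.82% of all tested genes in the higher direction. Their list summed to 1580 to 2841 TPM in WT_Ctrl and 3011 to 8930 TPM in S302A_Ctrl. Relative to the untreated mean, the log2 list mean was 1.33, 0.071 and 0.085 in S302A_Ctrl. In WT_Ctrl it was -1.14, -0.18 and -0.17. The part of these transcripts in other differences was not tested. In whole tissue, more cells of a type and more RNA per cell cannot be told apart.

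Prrg1, a vitamin K-dependent transmembrane protein gene on the X chromosome, shows how far a difference can rest on the wild-type libraries. It was at the floor of 1 TPM in WT_Ctrl replicates 1 and 2, at 9.91 TPM in WT_Ctrl replicate 3, and at 31.8, 20.7 and 22.3 TPM in S302A_Ctrl (2.86, adjusted p = 0.406). After DEN it stood at 20.3, 38.0 and 20.7 TPM in wild type and 18.1, 33.8 and 24.1 TPM in the knock-in. Of the 12 libraries, WT_Ctrl replicates 1 and 2 were the ones at the floor. Abhd1, listed by RefSeq as a transcribed pseudogene, stood at 1.02, 1 and 7.51 TPM in WT_Ctrl and 13.9, 28.1 and 17.4 TPM in S302A_Ctrl. It shares 75.9% of its 31-base stretches with other genes. Cyp2a4, a cytochrome P450 higher in female than male liver, stood at 1.20, 1 and 83.6 TPM in WT_Ctrl and 76.1, 58.1 and 78.7 TPM in S302A_Ctrl, and 58.9% of its 31-base stretches occur elsewhere, most often in Cyp2a5. Its groups overlapped (3.31, adjusted p = 0.997), and without WT_Ctrl replicate 3 it was called (5.09, adjusted p = 9.66e-06), as were Prrg1 (3.67, 0.000206) and Abhd1 (3.31, 0.0018). Over all genes, leaving that library out gave 17 calls, 10 higher and 7 lower, in place of 2.

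The remaining genes of the rule were Ces1g, a carboxylesterase that hydrolyses lipids and drugs, and RNAs of which most carry only a clone or predicted-gene name. Ces1g stood at 20.9, 24.9 and 46.0 TPM in WT_Ctrl and at 90.5, 138 and 81.4 TPM in S302A_Ctrl (1.76 ± 0.30, adjusted p = 0.231, and 0.0153 without WT_Ctrl replicate 3). AB343393 and AB343394 had identical values in all 12 libraries and count as 1 measurement: 12.8, 4.85 and 7.69 TPM in WT_Ctrl and the floor in S302A_Ctrl (adjusted p = 0.0732). 2610507I01Rik stood at 13.3, 7.94 and 4.82 TPM in WT_Ctrl and at the floor in S302A_Ctrl (adjusted p = 0.0732). AB343393, AB343394 and 2610507I01Rik passed the filter only through WT_Ctrl, so their groups could not overlap. The wild-type and knock-in means were 269.1 and 133 TPM for BC019819, 95.9 and 61.1 TPM for Tmem243 and 70.95 and 41.8 TPM for AI506816, with adjusted p of 0.238 to 0.417. AK200837 averaged 1.66 TPM in WT_Ctrl and 5.76 in S302A_Ctrl (adjusted p = 0.105), and 2210016F16Rik 13.3 and 23.9 (adjusted p = 0.404).

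The genotype difference was set beside the same contrast after DEN, which shares no library with it. There, 4 of 11558 genes (0.0346%) were called and 9.87% had groups that did not overlap. That contrast rests heavily on S302A_DEN replicate 3: without it 578 genes were called. Of 812 genes without overlap in untreated liver that were also tested after DEN, 32 did not overlap in the same direction after DEN and 51 in the opposite direction. Across 11047 genes tested in both, 41.9% had the same sign. The median difference of tested genes was -0.07 untreated and 0.06 after DEN. These opposite shifts by themselves favour opposite signs, and signs were not compared after scaling. The counts are therefore not read as a reversal after DEN.

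Cyp2c37 stood at 408, 259 and 299 TPM in WT_DEN and at 20.6, 74.9 and 33.9 TPM in S302A_DEN, a difference of -3.04 (adjusted p = 0.073) beside -2.54 in untreated liver. Cyp2c50 stood at 1055, 744 and 719 TPM in WT_DEN and at 146, 287 and 117 TPM in S302A_DEN (-2.28, adjusted p = 0.0897). In both comparisons every knock-in library lay below every wild-type library for both genes. The interaction, which tests whether the genotype difference itself changes with DEN, was -0.50 for Cyp2c37 and -0.96 for Cyp2c50 (adjusted p = 0.989 for each), which does not show the differences to be equal.

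Slc1a2, a glutamate transporter of the hepatocytes around the central vein, was among the 32. It stood at 37.6, 17.496 and 24.2 TPM in WT_Ctrl and 14.5, 11.2 and 13.3 in S302A_Ctrl (-0.91, adjusted p = 0.955), and its DEN means were 25.7 and 8.59 TPM. Cyp2c40, higher in the knock-in in both, averaged 4.03 and 8.19 TPM after DEN. Lgals4, a galectin of epithelia, averaged 8.88 and 3.56 TPM in untreated and 7.88 and 2.25 TPM in DEN-treated wild type and knock-in. H2-Q10, a secreted class I histocompatibility protein of liver, averaged 1286 and 952 TPM untreated and 2096 and 921 TPM after DEN. Lgals4 and H2-Q10 were picked from the 32 after their values were seen.

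The called genes did not keep their pattern after DEN. Fam25c stood at 6.82, 3.11 and 57.5 TPM in WT_DEN and at 10.96, 5.37 and 255 TPM in S302A_DEN. Pttg1 stood at 65.6, 53.6 and 7.39 TPM in WT_DEN and at 3.63, 3.49 and 39.4 TPM in S302A_DEN. For both genes replicate 3 stood far from replicates 1 and 2 in each genotype, and the groups overlapped. Rn45s, at 540, 199 and 201 TPM in WT_DEN and 271, 341 and 335 TPM in S302A_DEN, overlapped as well, and Rpph1 was at the floor in all 3 S302A_DEN libraries. The interaction, which passed the test for 7 of 11279 genes (0.0621%), was -3.002 for Rpph1 (adjusted p = 0.0465), -2.00 for Rn45s (0.38), 5.03 for Fam25c (0.542) and 1.06 for Pttg1 (0.989). Of these, only that of Rpph1 passed, and it was lost in 10 of 12 fits that left out 1 library (adjusted p = 0.00287 to 0.188).

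**Figure D4:**
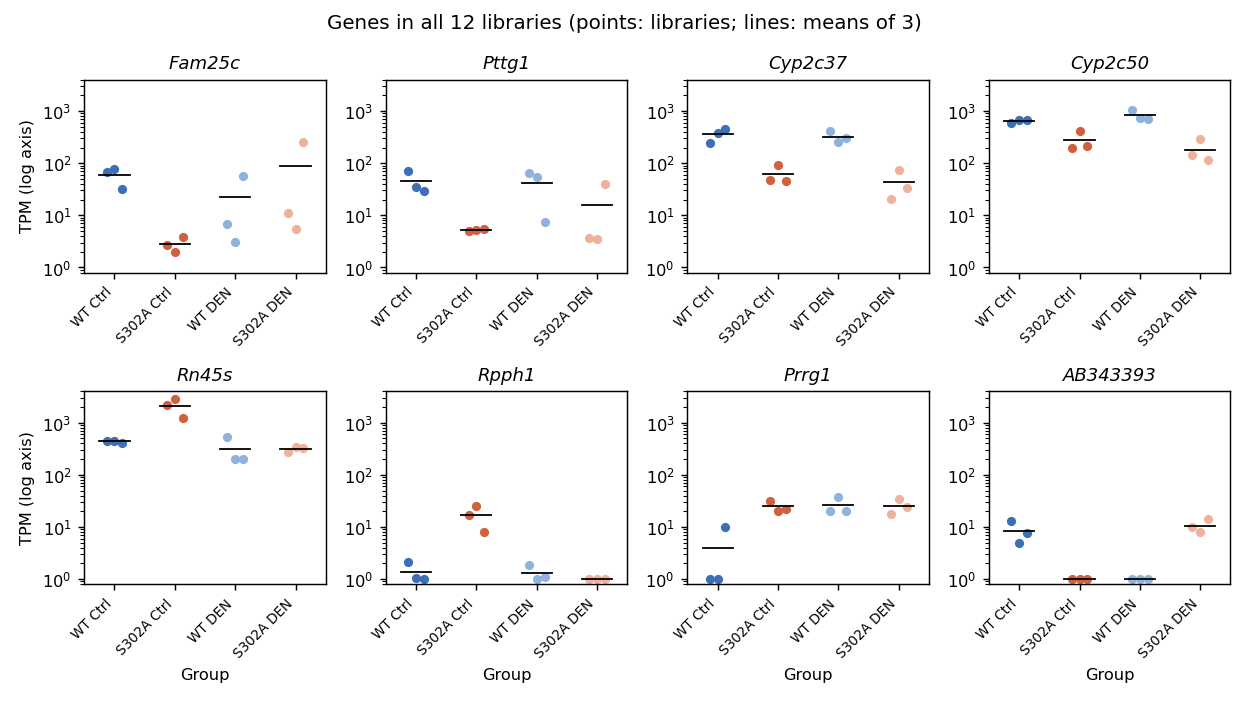
TPM on a log axis of 8 genes in the 4 groups; points are libraries and lines are means of 3. Cyp2c37 and Cyp2c50 are lower in both knock-in groups, Rn45s and Rpph1 are high in untreated knock-in alone, Prrg1 is near the floor in 2 untreated wild-type libraries, and AB343393 is at the floor in S302A_Ctrl and WT_DEN.

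The list of genes around the central vein holds Cyp2c37 and Slc1a2, already described. This zone is set by Wnt signalling and makes glutamine from ammonia. Of 19 tested pericentral genes, 5 did not overlap in the lower direction (Cyp2c37, Slc1a2, Glul, Lgr5 and Axin2) and 0 in the higher, against 5.67% and 1.82% of all tested genes, and 0 were called. Without Cyp2c37 and Slc1a2 that is 3 of 17, and nothing is read from the share. Glul, glutamine synthetase, stood at 277, 282 and 270 TPM in WT_Ctrl and at 196, 215 and 221 TPM in S302A_Ctrl (-0.39 ± 0.12, adjusted p = 0.997). Lgr5, a receptor that strengthens Wnt signals, stood at 1.43, 2.45 and 1.39 TPM in WT_Ctrl and at 1, 1.04 and 1 TPM in S302A_Ctrl. The list as a whole had a median of -0.09, close to the -0.07 of all tested genes. After median-of-ratios scaling 3 did not overlap and 9 of 19 were lower. Of 20 periportal genes, 0 stood apart in either direction.

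Stress and secretory genes were mostly lower in the knock-in, beside 68.6% of all tested genes as deposited, none past the test. All 13 tested heat shock genes were lower (median -0.33), among them the chaperone genes Hspa8, at 761, 632 and 447 TPM in WT_Ctrl and 502, 392 and 411 TPM in S302A_Ctrl, and Hspa1b, at 10.4, 12.2 and 2.94 TPM and 4.93, 2.17 and 1.604 TPM. Both overlapped through WT_Ctrl replicate 3. Of the 13, 2 did not overlap, Hspe1 and Cryab, against 5.67% of all tested genes in the lower direction. All 13 were also lower after median-of-ratios scaling. Of 24 genes of the unfolded protein response, 20 were lower (median -0.39) and 0 stood apart, with the disulfide isomerase gene Pdia6 at 156, 162 and 108 TPM in WT_Ctrl and 99.0, 115 and 80.3 TPM in S302A_Ctrl. Of 24 genes of cholesterol synthesis, 23 were lower (median -0.34) and 0 stood apart. Its squalene epoxidase gene Sqle stood at 28.7, 23.6 and 10.5 TPM in WT_Ctrl and 5.67, 18.4 and 7.26 TPM in S302A_Ctrl. Scaling left 19 of 24 and 22 of 24 lower in these lists, and leaving out single libraries and other settings gave medians of -0.55 to -0.28 and of -0.63 to -0.07. The list means of heat shock, unfolded protein response and cholesterol synthesis overlapped between the groups. For cholesterol synthesis, S302A_Ctrl replicate 2 (0.29) lay above WT_Ctrl replicates 2 and 3 (0.07 and -0.29).

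Interferon response and acute phase genes were mostly lower, beside 68.6% of all tested genes as deposited, none past the test. Of 27 interferon response genes, 24 were lower, before and after median-of-ratios scaling, with a median of -0.29. As deposited, 7 stood apart lower and 1 higher, against 5.67% and 1.82% of all tested genes, and 0 were called. After scaling 4 stood apart lower and 2 higher, beside 462 and 499 of all 11279 tested genes. Psmb9, an immunoproteasome subunit, stood at 36.5, 18.9 and 18.7 TPM in WT_Ctrl and 7.31, 11.96 and 17.9 TPM in S302A_Ctrl. Isg15, a ubiquitin-like protein induced by interferon, stood at 9.72, 8.89 and 6.35 TPM and 4.15, 5.92 and 5.49 TPM. Igtp, an interferon-induced GTPase, went the other way, with overlap, at 16.9, 9.03 and 10.4 TPM and 16.4, 22.0 and 18.2 TPM. Of 30 acute phase genes, 26 were lower (median -0.25), with 3 apart lower and 1 higher, and after scaling 22 were lower, with 1 apart in each direction. Saa3, a serum amyloid A protein, stood at 17.2, 23.3 and 13.5 TPM in WT_Ctrl and 4.96, 9.28 and 9.91 TPM in S302A_Ctrl (-1.09 ± 0.28, adjusted p = 0.751). Of 35 complement and coagulation genes, 29 were lower as deposited and 14 after scaling, so that direction turned with the scale. The complement component C6 was without overlap on both scales, at 154, 159 and 129 TPM in WT_Ctrl and 96.2, 100.3 and 91.5 TPM in S302A_Ctrl (-0.61 ± 0.13, adjusted p = 0.515).

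**Figure D5:**
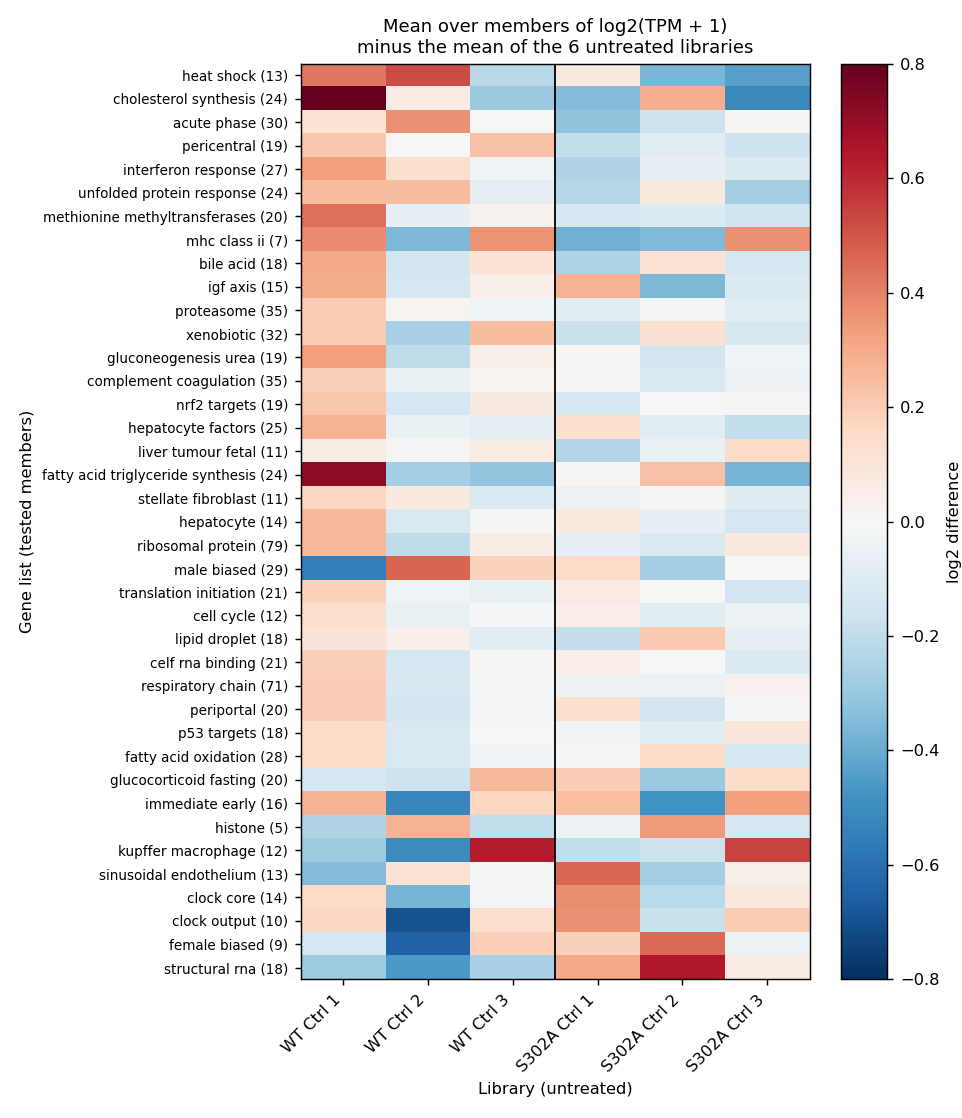
Rows are the gene lists with at least 5 tested members, and columns are the 6 untreated libraries. Colour gives the mean log2(TPM + 1) of the members minus its mean over those libraries. The structural RNA list, which also holds long non-coding RNAs, is above 0 in all 3 knock-in libraries (0.06 to 0.64). In wild type it is below 0 (-0.46 to -0.26). Heat shock genes are below 0 in WT_Ctrl replicate 3 (-0.23) as in S302A_Ctrl replicates 2 and 3. Cholesterol and fatty acid synthesis are highest in WT_Ctrl replicate 1 (0.80 and 0.72).

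Metabolic lists were mixed. Of 20 genes of methionine metabolism and methyl transfer, 14 were lower, near the 68.6% of all tested genes, and 4 stood apart lower against 5.67%, with 0 called. Among the 4 was As3mt, the arsenite methyltransferase, at 25.98, 20.6 and 12.4 TPM in WT_Ctrl and 3.30, 11.1 and 5.45 TPM in S302A_Ctrl. After scaling, 12 of 20 were lower, 4 stood apart lower and 1 higher. Of 32 xenobiotic genes, 20 were lower, 6 stood apart lower, Cyp2c37, Cyp2c50, Cyp2c55, Gstm2, Gstm3 and Ugt2b1, and 1 higher, Cyp2c39, against 5.67% and 1.82% of all tested genes. After scaling 17 were lower and 5 stood apart lower. Cyp2c37, Cyp2c50 and Cyp2c55 had been named by a rule that required no overlap, so nothing is read from the share. Of 18 bile acid genes, 11 were lower. Cyp7a1, the rate-limiting enzyme of bile acid synthesis, stood at 36.0, 10.3 and 14.2 TPM in WT_Ctrl and 2.35, 10.8 and 6.70 TPM in S302A_Ctrl, with overlap (-1.46 ± 0.53, adjusted p = 0.997). Nr0b2, a repressor of it, stood at 23.3, 23.4 and 33.2 TPM and 22.4, 80.6 and 49.0 TPM.

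Of 24 genes of fatty acid and triglyceride synthesis, 10 were higher and 14 lower (14 and 10 after scaling). Of these, 2 stood apart, both higher, against 1.82% of all tested genes in that direction. They were Srebf1, the transcription factor of lipid synthesis, at 55.9, 27.1 and 44.8 TPM in WT_Ctrl and 66.9, 58.6 and 58.3 TPM in S302A_Ctrl, and Dgat2, which forms triglycerides, at 152, 119 and 156 TPM and 197, 165 and 165 TPM. Of 28 fatty acid oxidation genes 15 were higher and 13 lower (21 and 7 after scaling), and of 18 lipid droplet genes 8 and 10 (12 and 6), with 0 apart in both lists as deposited. Of 71 respiratory chain genes, 41 were lower as deposited and 17 after scaling. Of 29 male-biased genes, 17 were lower and 4 stood apart lower against 5.67% of all tested genes (after scaling 15 were lower, with 1 apart in each direction), among them Elovl3, a fatty acid elongase, at 97.0, 364 and 93.7 TPM in WT_Ctrl and 75.7, 81.3 and 47.0 TPM in S302A_Ctrl.

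Genes tied to time of collection varied between libraries of the same genotype. Dbp, a clock-driven transcription factor, stood at 47.2, 5.41 and 62.7 TPM in WT_Ctrl and at 90.9, 32.3 and 74.7 TPM in S302A_Ctrl. WT_Ctrl replicate 2 and S302A_Ctrl replicate 2 were the lowest of their groups. The 10 clock output genes followed, with list means of -0.70 and -0.18 in those libraries and 0.14 to 0.37 in the other 4. Of 14 core clock genes, 11 were higher in the knock-in (median 0.21), 0 stood apart and 0 were called, and of 16 immediate early genes 10 were higher, with 0 apart. The labels give no hour of collection, so its part in the genotype difference was not tested.

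The genes that the study's other parts turn on differed little. Psmd10, which encodes the oncoprotein gankyrin, stood at 8.95, 7.12 and 7.36 TPM in WT_Ctrl and at 5.89, 7.22 and 6.03 TPM in S302A_Ctrl (-0.25 ± 0.16). Cebpa, Cebpb and Hnf4a, liver transcription factors, Nr1h4, the bile acid receptor, the tumour suppressors Trp53 and Rb1, the deacetylase Hdac1 and the CUGBP1 relative Celf2 had log2 differences between -0.12 (Cebpb and Hdac1) and 0.25 (Cebpa), with adjusted p of 0.997 to 0.999. The cell cycle inhibitor Cdkn1a was at the floor in 5 of the 6 libraries and was not tested. Of 21 genes of RNA binding and decay, Celf1 itself among them, 12 were lower and 9 higher (10 and 11 after scaling). Standing apart were 2 lower, Mbnl2 and Tia1, and 1 higher, Cnot8, against 5.67% and 1.82% of all tested genes. Mbnl2, a splicing regulator often opposed to CUGBP1, stood at 8.36, 8.33 and 8.78 TPM in WT_Ctrl and 6.15, 6.58 and 5.95 TPM in S302A_Ctrl (-0.39 ± 0.14, adjusted p = 0.997). Of 35 proteasome genes, 34 were lower as deposited (median -0.12) and 23 after scaling. Of 79 ribosomal protein genes, 65 were lower as deposited and 33 after scaling, and of 21 translation initiation genes 17 and 9.

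Cell type markers were checked for the tissue label and for other cells. All 14 tested hepatocyte markers were present, summing to 69188 to 106570 TPM in WT_Ctrl and 78061 to 90167 in S302A_Ctrl, and 0 stood apart. Macrophage markers (12 tested) summed to 137 to 308 TPM and 169 to 289 TPM. Sinusoidal endothelial markers were higher in 13 of 13, by a median of 0.15, but each overlapped, and their sums were 79.4 to 108 TPM and 78.6 to 140 TPM. Of 11 stellate cell and fibroblast markers, 7 were lower and 1, Dcn, stood apart lower, against 5.67% of all tested genes. All striated muscle markers and all but 1 of the adipocyte, exocrine pancreas and lymphocyte markers were too low to be tested. Spearman correlations across genes were 0.958 to 0.965 between libraries of the same group and 0.949 to 0.977 between groups, the highest being between WT_Ctrl replicate 3 and S302A_Ctrl replicate 3.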

How the data were processed

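RNA of whole mouse liver was sequenced from libraries made with TruSeq kits, per the labels' protocols. The authors deposited TPM per gene symbol, quantified by kallisto with mm10 per the submitters' processing notes; the kallisto version and the annotation are not given in the sources used here. No deposited value lay below 1, so 1 was read as a floor. TPM keeps no depth: depth and counting error are unknown. Near-identical genes can exchange reads, which affects Cyp2c, Cyp2a and structural RNA values.

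Groups followed the labels, n = 3 each. Genes above 1 TPM in at least 3 of the 6 untreated libraries were tested on log2(TPM + 1) with limma 3.58.1 in R 4.3.3 (empirical Bayes with trend, 4 residual degrees of freedom, two-sided, Benjamini-Hochberg over all tested genes, threshold 0.05). The DEN contrast was fitted on its own 6 libraries and the interaction on all 12. Genes without overlap are those where every library of a group lies on 1 side of every library of the other group. A gene at the floor in a whole untreated group passes the filter only through the other group, so its groups cannot overlap. The script was tested on simulated data.

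The text names the 12 largest rises and falls among called genes without overlap and with a mean of at least 5 TPM in the higher group, filled up by the smallest unadjusted p, then the study's genes, then up to 4 genes of each of 47 lists by smallest p and all members of the structural RNA, clock and immediate early lists; genes from outside it are further Cyp2c members, Cyp2a5, Axin2, Hspe1, Gstm2, Ugt2b1, Lgals4, H2-Q10 and the other genes of the closing section, chosen after their values were seen. The comparison, its members and the lists were chosen with earlier results of these data known. Lists got no set test. Not every list member is reported here by name. Gene positions came from RefSeq (10610 of 11279 tested genes matched). Alternatives covered pseudocounts of 0.5 and 5, filters, scaling, moderation, the libraries in the fit, a replicate block and leaving out each library.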

Additional observations from a re-analysis of the deposited data

Results flagged for a closer look

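For 7 genes the genotype difference in untreated liver and the difference after DEN were themselves different by limma's interaction test over all 12 libraries (7 of 11279 genes, 0.0621%). The interaction is the DEN-treated knock-in minus wild-type difference less the untreated one, on the log2(TPM + 1) scale. AB343393 and AB343394, which hold identical values, had an interaction of 4.67 (adjusted p = 0.00018): they were at the floor in S302A_Ctrl and WT_DEN and at 9.95, 8.13 and 13.9 TPM in S302A_DEN. They passed the filter only through WT_Ctrl. A group with every library at the floor has an SD of 0, so its spread is not measured and the adjusted p can be too small. The same limit applies below to Rpph1 (floor in S302A_DEN) and Snord12 (floor in WT_DEN). Gvin1, an interferon-inducible GTPase, had 2.14 (adjusted p = 0.0077), with 2.00, 2.17 and 1.77 TPM in WT_Ctrl, 1.16, 1 and 1.27 in S302A_Ctrl, 1.91, 1.10 and 1.08 in WT_DEN and 6.44, 5.93 and 6.83 in S302A_DEN. AK220016 had -11.78 (adjusted p = 0.00783), with 308, 225 and 203 TPM in S302A_Ctrl, 244, 557 and 336 in WT_DEN and 5.93, 1 and 1 in S302A_DEN. In WT_Ctrl it stood at 1.90, 1 and 93.3 TPM.

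Cyp2b10, a cytochrome P450 induced through the receptor CAR, had an interaction of -2.75 (adjusted p = 0.0171). It stood at 4.70, 7.29 and 7.22 TPM in WT_Ctrl and 5.88, 9.30 and 8.02 in S302A_Ctrl, and at 10.8, 15.1 and 12.1 TPM in WT_DEN and 1, 2.33 and 1 in S302A_DEN. Rpph1 had -3.002 (adjusted p = 0.0465), with the values given above. Snord12, a small nucleolar RNA, had 3.08 (adjusted p = 0.0465), at 8.78, 2.24 and 4.14 TPM in WT_Ctrl, 2.22, 1 and 1.38 in S302A_Ctrl, the floor in WT_DEN and 5.67, 9.66 and 5.43 in S302A_DEN.

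In the 12 fits that left out 1 library each, the call was lost in 1 for AK220016, 2 for Gvin1, 7 for Cyp2b10, 10 for Rpph1 and 10 for Snord12. AB343393 and AB343394 passed in the 9 fits in which they were tested and were not tested without any WT_Ctrl library. Under median-of-ratios scaling 5 of the 7 passed, and Cyp2b10 (adjusted p = 0.0682) and Snord12 (0.102) did not; with the replicate block Snord12 did not (0.0573). Without WT_Ctrl replicate 1 limma called 0 genes in all (571 at an unadjusted p under 0.05).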

How the results depend on the processing

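The number of genes called in untreated liver, 2, was 1 with a pseudocount of 5, 0 without a filter (417 at an unadjusted p under 0.05), 0 after quantile normalization (493), 0 with robust moderation (391), and 4 with the spread taken from all 12 libraries or from 11 without S302A_DEN replicate 3. Those 4 were Rpph1, AK200837, AB343393 and AB343394, without Fam25c and Pttg1. Each of the 4 was at the floor in every library of at least 1 group, where spread is not measured. For Rpph1 that group was S302A_DEN, and for AK200837 both DEN groups. Leaving out each library gave 0 to 17 calls: 0 without WT_Ctrl replicate 2 (433) or S302A_Ctrl replicate 1 (349), 1 without WT_Ctrl replicate 1, 5 without S302A_Ctrl replicate 2 and 17 without WT_Ctrl replicate 3. The replicate block gave 0 calls (658). Whether the replicate numbers pair the libraries was not settled. Correlations of deviations from the group mean were -0.00982, 0.189 and 0.297 for same-numbered libraries. For differently numbered libraries they were -0.261 to 0.0551. The 4 calls after DEN became 13 with median-of-ratios scaling, 197 with the replicate block and 1 to 578 with a library left out, 578 without S302A_DEN replicate 3. The 7 interaction calls became 12, 5 of the 7 among them, with median-of-ratios scaling and 0 to 68 with a library left out, 0 without WT_Ctrl replicate 1 and 68 without S302A_DEN replicate 3. The cause of these changes was not tested.

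Signs turned for genes near 0: Hnf4a (main -0.0021) was 0.086 after median-of-ratios scaling, 0.054 after quantile normalization and -0.068 to 0.033 with a library left out; with a library left out Celf2 ranged from -0.12 to 0.15, Cebpb from -0.35 to 0.18, Nr1h4 from -0.11 to 0.39 and Rb1 from -0.075 to 0.088. Across its settings, Fam25c ranged from -4.29 to -2.96 and Pttg1 from -3.03 to -2.20. With 3 libraries a group and no depth, differences near the spread were not detectable.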

Other observations

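A set of RNAs was near the floor in WT_Ctrl replicates 1 and 2 and present in the other 10 libraries. Besides Prrg1, 4 tested RNAs correlated with it above 0.95 over the 12 libraries, a choice made after the values were seen. BC024416 stood at 2.40, 3.29 and 91.8 TPM in WT_Ctrl and at 238, 153 and 209 TPM in S302A_Ctrl. A330049N07Rik, a long non-coding RNA on chromosome 10, stood at 1, 1 and 87.6 TPM and at 222, 131 and 170 TPM. Gm20752, a long non-coding RNA on chromosome 3, stood at 1, 1 and 19.5 TPM and at 48.9, 27.2 and 35.7 TPM. AK029599 stood at 1.75, 1 and 14.1 TPM and at 35.5, 20.2 and 33.1 TPM. Their levels after DEN, in both genotypes, were those of S302A_Ctrl to within a few-fold, with 83.4 to 194 TPM for A330049N07Rik.

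Of 19 tested major urinary protein genes (symbols beginning with Mup), 0 had groups without overlap, and of 486 tested symbols that are clone accessions 9.88% did, against 7.48% of all tested genes. Hmox1, which degrades haem, stood at 5.62, 6.93 and 14.5 TPM in WT_Ctrl and 12.4, 15.9 and 16.1 TPM in S302A_Ctrl, with WT_Ctrl replicate 3 inside the knock-in range.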
